A study of Mus musculus with 24 samples.

Results

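Btg2, Dusp1, Tiparp, Sik1, Gadd45g and Trib1 are targets of the transcription factor CREB that also respond to stress signals, and they were chosen by their measured values: all 6 had been seen higher with vorinostat than with vehicle in these arrays. They are 6 of the 17089 protein-coding genes that passed the expression filter, and all 6 passed it. Each was measured in the hippocampus of single animals on Affymetrix Mouse Gene 2.0 ST arrays, 24 in all. The groups were vorinostat, an inhibitor of histone deacetylases (3 arrays), tadalafil, an inhibitor of the cGMP-degrading enzyme PDE5 (3 arrays), both drugs together, called the combination (7 arrays), CM-414, named in the labels by this code alone (4 arrays), and vehicle (7 arrays), which the labels describe as saline and the study's methods as a DMSO solution. The study's text describes fewer animals per group than the vehicle and combination arrays analysed here, and does not say which arrays they are. Every mouse, vehicle included, was an aged Tg2576 transgenic, a model of Alzheimer's disease in which the prion promoter drives human amyloid precursor protein with the Swedish mutation; the study's methods describe females on a C57BL/6/SJL background, the labels name B6.Cg-Tg(APPswe)E1-2Dbo/J as strain background and give an age of 16 to 18 months. No wild-type arrays were analysed here. Dosing lasted 4 weeks and tissue was taken after a further 4 weeks without drug, so that the levels below are those after washout. The study's methods describe memory testing during dosing and a second round of water maze training shortly before tissue was taken. They do not mention CM-414, and whether the animals of every array were trained is not stated.

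CREB is phosphorylated downstream of cAMP, calcium and growth factor signals, binds the cAMP response element (CRE) in promoters and, with the acetyltransferases CBP and p300, raises transcription within minutes to hours. Many of its targets are immediate early genes of neurons, and the genes described here are of the kind that feeds back on signalling. Dusp1 encodes a nuclear phosphatase that inactivates MAP kinases. Sik1 encodes a salt-inducible kinase that keeps the CREB coactivators of the CRTC family in the cytoplasm. Btg2 encodes an antiproliferative protein of the BTG/TOB family that acts in mRNA deadenylation and is also a p53 target, and Gadd45g encodes a small stress-inducible protein that binds the kinase MEKK4. Tiparp encodes a mono-ADP-ribosyltransferase, a target and repressor of the aryl hydrocarbon receptor. Trib1 encodes a pseudokinase that brings substrates such as C/EBPα to the ubiquitin ligase COP1.

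In the annotation of GRCm38.p6, Btg2 lies on chromosome 1 (134074865 to 134079155), Tiparp on chromosome 3 (65528447 to 65555518), Gadd45g on chromosome 13 (51846675 to 51848475) and Trib1 on chromosome 15 (59648654 to 59657099). Dusp1 (26505591 to 26508472) and Sik1 (31844248 to 31855804) both lie on chromosome 17. RefSeq promoter sequences were found for 4 of the 6 genes, and the 250 bases before the start were searched on both strands for the full CRE (TGACGTCA), its shorter core (TGACG, which every full CRE also holds), TATAAA and CCAAT. Btg2 and Dusp1 each held a full CRE, which 1.55% of all 32851 promoters hold, and 2.48% of those of the genes that passed the expression filter. Its first base lay 166 bases before the start in Btg2 and 143 bases before it in Dusp1, and Dusp1 held a further core site at 191 bases. Btg2 also held CCAAT at 173 and 34 bases. Tiparp and Gadd45g held neither the full CRE nor the core site in this window. The core site is present in 17.8% of all promoters and 25.6% of those of filtered genes. Gadd45g held TATAAA at 27 bases and CCAAT at 78 bases, which 12.4% and 33.8% of promoters hold. Sik1 and Trib1 were not searched. Btg2 and Dusp1 are shown because they carry the full CRE and were the pair that varied most alike between arrays, and Gadd45g because it carries none and followed the others least. They are printed 5′ to 3′ on the gene's strand. Capitals mark the CRE and the core site in Btg2 (chr1:134079156-134079405, minus strand) and Dusp1 (chr17:26508473-26508722, minus strand), and CCAAT and TATAAA in Gadd45g (chr13:51846425-51846674, plus strand).
Btg2: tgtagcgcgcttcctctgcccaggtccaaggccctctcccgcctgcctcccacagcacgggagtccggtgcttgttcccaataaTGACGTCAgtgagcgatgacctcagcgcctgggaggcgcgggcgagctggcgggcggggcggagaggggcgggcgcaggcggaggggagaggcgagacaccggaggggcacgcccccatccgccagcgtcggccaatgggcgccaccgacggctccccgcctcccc
Dusp1: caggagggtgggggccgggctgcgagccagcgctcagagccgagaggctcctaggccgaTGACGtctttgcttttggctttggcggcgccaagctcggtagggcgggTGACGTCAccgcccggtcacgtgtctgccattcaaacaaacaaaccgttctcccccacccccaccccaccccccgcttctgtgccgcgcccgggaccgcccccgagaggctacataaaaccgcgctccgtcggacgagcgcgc
Gadd45g: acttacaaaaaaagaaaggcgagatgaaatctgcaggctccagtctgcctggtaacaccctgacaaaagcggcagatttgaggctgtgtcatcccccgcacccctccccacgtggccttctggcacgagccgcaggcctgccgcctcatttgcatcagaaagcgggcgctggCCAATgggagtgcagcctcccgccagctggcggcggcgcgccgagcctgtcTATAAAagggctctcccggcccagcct

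Some arrays stood apart from others of their group. The level of the small nucleolar RNA gene Snord13 divided the arrays into a first set, from 7.27 to 8.46 on the log2 scale (vorinostat 1 to 3, tadalafil 1 to 3, combination 1 to 3 and vehicle 1 to 3), and a second set, from 10.35 to 11.46 (combination 4 to 7, CM-414 1 to 4 and vehicle 4 to 7). The labels do not name these sets, which were drawn from the data; the single drugs lie only in the first and CM-414 only in the second, so that for them set and treatment cannot be told apart without the vehicle arrays of the same set. Tcf7l2, a thalamic marker, was at 10.05 in CM-414 3 and 10.55 in vehicle 3, against 5.84 to 7.18 in the other 22 arrays. Several of the differences below are also given without these arrays. Markers of CA1 pyramidal cells, which define the labelled tissue, averaged 7.16 in CM-414 3 and 7.41 in vehicle 3, and 8.63 to 9.08 in the other 22 arrays. In whole tissue, fewer cells of a type and less RNA per cell cannot be told apart.

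With vorinostat, the contrast that chose them, the 6 genes were higher by 0.34 to 0.90 on the log2 scale (median 0.61, against -0.01 over all genes). These values are a description, and neither they nor the next ones on the same contrast support the choice of genes. Btg2 was at 7.81, 7.84 and 7.83 in the vorinostat arrays, against 6.82, 6.99, 6.21, 6.95, 7.11, 7.37 and 7.06 in the 7 vehicle arrays in order of their numbers. The vorinostat arrays lay close together above every vehicle array, and the lowest vehicle value was that of vehicle 3, the array with thalamic marker. The difference was 0.90 (SE 0.19), and 0.78 without the arrays vehicle 3 and CM-414 3. Dusp1 was at 8.86, 9.09 and 8.67 with vorinostat, against 7.93, 8.002, 7.94, 7.95, 7.87, 8.60 and 8.20 with vehicle, a difference of 0.80 (SE 0.20). Vehicle 6 was the nearest to the vorinostat arrays for Dusp1, as it was for Btg2.

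Tiparp was at 8.04, 8.02 and 7.78 with vorinostat, against 7.42, 7.48, 7.28, 7.12, 7.16, 7.23 and 7.26 with vehicle (difference 0.67, SE 0.14). Sik1 was at 7.82, 7.75 and 7.79 with vorinostat, against 7.22, 7.34, 7.12, 7.13, 7.37, 7.25 and 7.28 with vehicle (difference 0.55, SE 0.13). For both genes the groups were apart with no vehicle array above 7.48. Gadd45g was at 7.54, 7.65 and 7.95 with vorinostat, against 7.55, 7.22, 6.99, 7.14, 7.37, 7.01 and 7.21 with vehicle (difference 0.50, SE 0.13), and was the one gene of the 6 whose groups overlapped, through vehicle 1. Trib1 differed least, at 7.18, 7.30 and 7.11 with vorinostat, against 6.86, 6.99, 6.72, 6.85, 6.74, 6.92 and 6.94 with vehicle (difference 0.34, SE 0.10). No overlap between vorinostat and vehicle was thus seen for 5 of the 6, while 1.17% of all genes lay wholly above vehicle. Genes are said to be called below where the p in limma was under 0.05 after Benjamini-Hochberg adjustment over all genes. No calls are counted for this contrast, since it chose the genes.

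The order of the groups depends on the array set, since the single drugs lie only in the first. Averaged over the 6, the level was 7.89 ± 0.04 with vorinostat, 7.66 ± 0.18 with tadalafil, 7.45 ± 0.23 with the combination, 7.31 ± 0.06 with CM-414 and 7.27 ± 0.12 with vehicle (log2, SD over 3, 3, 7, 4 and 7 arrays). Within the first set it was 7.89 ± 0.04 with vorinostat, 7.66 ± 0.18 with tadalafil, 7.67 ± 0.05 with the combination and 7.23 ± 0.16 with vehicle, and within the second 7.28 ± 0.13 with the combination, 7.31 ± 0.06 with CM-414 and 7.29 ± 0.09 with vehicle. In the pooled order each step after the first was smaller than the larger SD of its neighbours, and the arrays of those neighbours overlapped, from 7.48 to 7.84 with tadalafil, 7.10 to 7.72 with the combination, 7.24 to 7.37 with CM-414 and 7.04 to 7.40 with vehicle. Single genes left the pooled order in places: Trib1 was higher with the combination than with tadalafil, Sik1 was higher with CM-414 than with the combination, and Dusp1 and Tiparp were lower with CM-414 than with vehicle. Each of these differences was smaller than the larger SD of its groups.

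**Figure D1:**
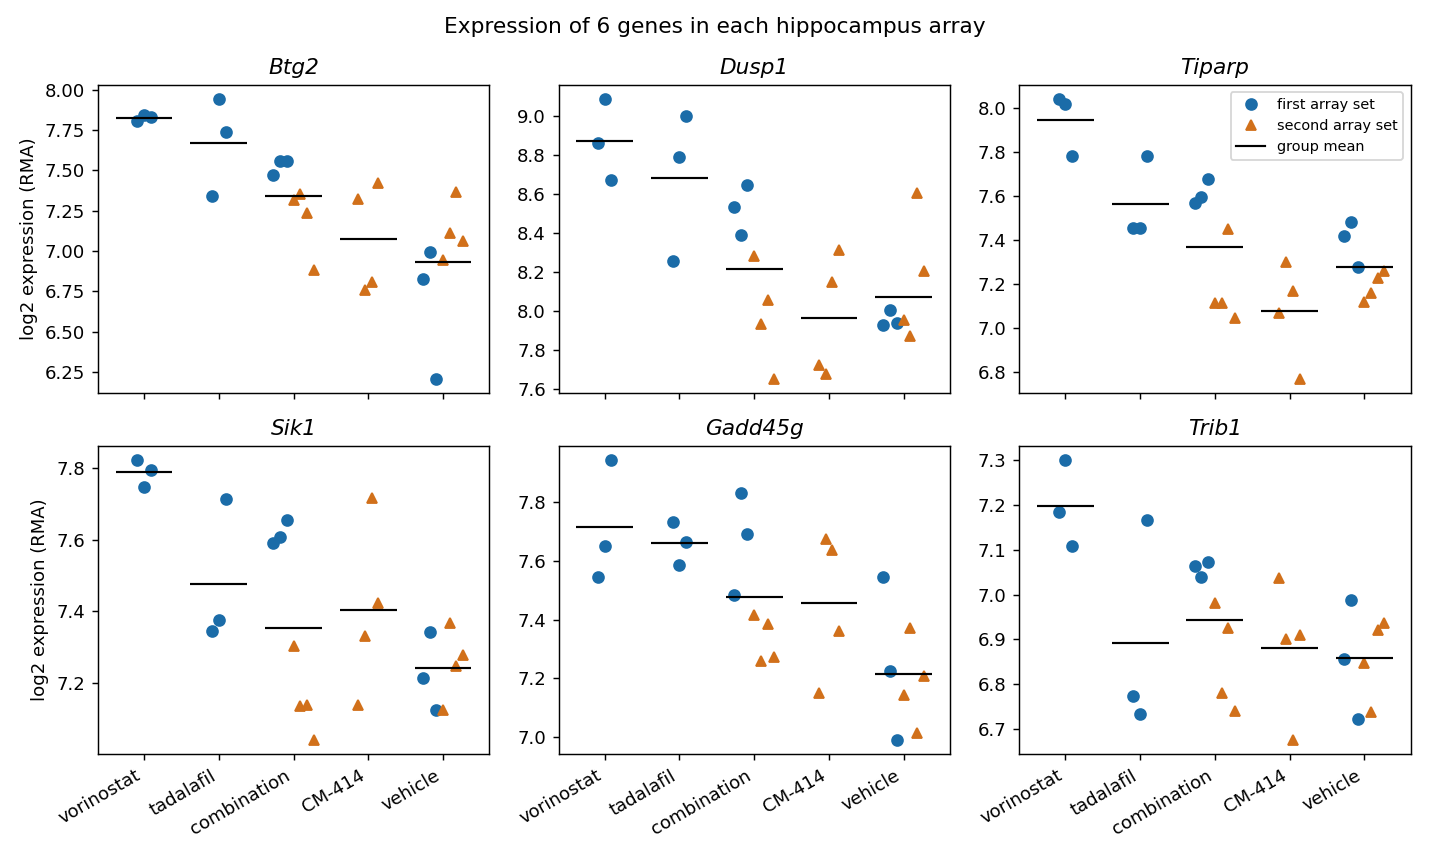
Level of each of the 6 genes (log2, y axis) in every array by group (x axis), with circles for the first array set, triangles for the second and a line at the group mean. The vorinostat circles lie above every vehicle point except for Gadd45g, and the combination circles lie above the combination triangles in all 6 panels.

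Choroid plexus markers were also higher in the vorinostat arrays. The 8 measured of 10 listed were all higher with vorinostat than with vehicle of the first set (median 1.58, and 1.35 without vehicle 3 and CM-414 3), and their mean level ran from 7.48 to 8.99 in the vorinostat arrays, against 6.77 to 7.20 in vehicle arrays of that set and 7.25 to 8.64 in those of the second. Their part in the levels of the 6 genes was not tested. Several other marker differences of the first set shrank or reversed without vehicle 3, whose thalamic markers averaged 9.23 and whose oligodendrocyte markers averaged 10.10. CA1 markers were above vehicle with vorinostat in 6 of 7 (median 0.27), but in 1 of 7 without that array (median -0.18). Endothelial markers were below vehicle in 8 of 10 either way (median -0.13, and -0.08 without it). Thalamic markers were below vehicle with vorinostat in 12 of 12 (median -0.62), but in 10 of 12 without that array (median -0.19), and oligodendrocyte markers in 7 of 7 (median -0.25), but in 3 of 7 without it (median 0.03). The vorinostat differences of the first set were 1.15 for Btg2 and 0.46 for Gadd45g, and 0.92 and 0.33 without vehicle 3.

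Tadalafil alone gave the next highest group mean for 5 of the 6 genes over all arrays, but for 2 of the 6 (Btg2 and Dusp1) against the combination arrays of the first set. The vehicle arrays against which it is set were also used in choosing the genes, so that these differences are given as values. Btg2 was at 7.34, 7.94 and 7.74 with tadalafil (difference from all vehicle arrays 0.74, SE 0.19), and Dusp1 at 8.26, 8.79 and 9.001 (difference 0.61, SE 0.20). In both genes tadalafil 1 was the lowest of the 3 and overlapped with vehicle 6. Gadd45g was at 7.73, 7.59 and 7.67 (difference 0.45, SE 0.13), and was the one gene of the 6 with all tadalafil arrays above all vehicle arrays, which 1.16% of all genes showed. Tiparp was at 7.46, 7.46 and 7.78 (difference 0.29, SE 0.14) and Sik1 at 7.34, 7.37 and 7.71 (difference 0.23, SE 0.13). Trib1 was at 6.77, 6.73 and 7.17, a difference of 0.03 (SE 0.10). In Tiparp, Sik1 and Trib1 tadalafil 3 was the array that stood high, while the other two lay in or near the vehicle range. Against vehicle of the first set, 4 of the 6 (Btg2, Dusp1, Sik1 and Gadd45g) were wholly above vehicle, with 4.3% of all genes. There the differences were 1.00 for Btg2, 0.73 for Dusp1, 0.41 for Gadd45g, 0.25 for Sik1, 0.17 for Tiparp and 0.04 for Trib1. Without vehicle 3 they were 0.76, 0.72, 0.28, 0.20, 0.11 and -0.03 in the same order. With array set as a block the differences were 0.78 for Btg2, 0.51 for Dusp1, 0.33 for Gadd45g, 0.10 for Tiparp, 0.11 for Sik1 and -0.02 for Trib1 (median 0.22, against 0.37 without the block). Of the 6 genes 0 were called, and 0% of all genes. In the first set microglial markers were above vehicle with tadalafil in 9 of 9 (median 0.25, and 8 of 9 with median 0.14 without vehicle 3), and choroid plexus markers in 7 of 8 (median 0.64, and 8 of 8 with median 0.58). Thalamic markers were below vehicle in 12 of 12 (median -0.67) and oligodendrocyte markers in 7 of 7 (median -0.14), against 9 of 12 and 0 of 7 without vehicle 3. Their part in the levels of the 6 genes was not tested.

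With the combination the 6 genes were lower than with either drug alone in the pooled means, except Trib1, and the 7 arrays fell apart by array set. Btg2 was at 7.47, 7.56 and 7.56 in the first set and 7.32, 7.35, 7.24 and 6.88 in the second. Dusp1 was at 8.53, 8.39 and 8.64 in the first set and 8.28, 7.93, 8.06 and 7.65 in the second. Tiparp was at 7.57, 7.60 and 7.68 in the first set and 7.11, 7.11, 7.45 and 7.04 in the second. For all of these the highest array of the second set stayed below the lowest of the first. Sik1 was at 7.59, 7.61 and 7.65 in the first set and 7.30, 7.13, 7.14 and 7.04 in the second. Gadd45g was at 7.48, 7.83 and 7.69 in the first set and 7.42, 7.26, 7.39 and 7.27 in the second. Trib1 was at 7.06, 7.04 and 7.07 in the first set and 6.98, 6.78, 6.93 and 6.74 in the second. The sets thus did not overlap for any of the 6 genes, the first set being wholly above the second for 6 of 6 and for 7.67% of all genes.

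The vehicle arrays were also used in choosing the genes. The differences from vehicle and counts above vehicle, here and for CM-414 below, are therefore given as values. Over all arrays the combination exceeded vehicle by 0.41 (SE 0.15) for Btg2 and 0.26 (SE 0.10) for Gadd45g, and by 0.09 to 0.14 for Dusp1, Tiparp, Sik1 and Trib1 (median of the 6 0.13, against 0.00 over all genes). No gene of the 6 was wholly above vehicle, as were 0.0234% of all genes. Without vehicle 3 and CM-414 3, the difference for Btg2 was 0.29. In the first set the differences from vehicle were larger, at 0.85 for Btg2, 0.57 for Dusp1, 0.42 for Gadd45g, 0.39 for Sik1, 0.22 for Tiparp and 0.20 for Trib1, and all but Gadd45g were wholly above the 3 vehicle arrays (5 of 6, against 4.94% of all genes). Without vehicle 3 these differences were 0.62 for Btg2, 0.56 for Dusp1, 0.29 for Gadd45g, 0.34 for Sik1, 0.16 for Tiparp and 0.14 for Trib1. In the second set they were 0.08 for Btg2, -0.18 for Dusp1, -0.01 for Tiparp, -0.10 for Sik1, 0.15 for Gadd45g and -0.00 for Trib1, and 0 of the 6 were wholly above vehicle (2.01% of all genes). Counts of called genes were 0 of 6 for the combination against vehicle, with 0% of all genes.

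**Figure D2:**
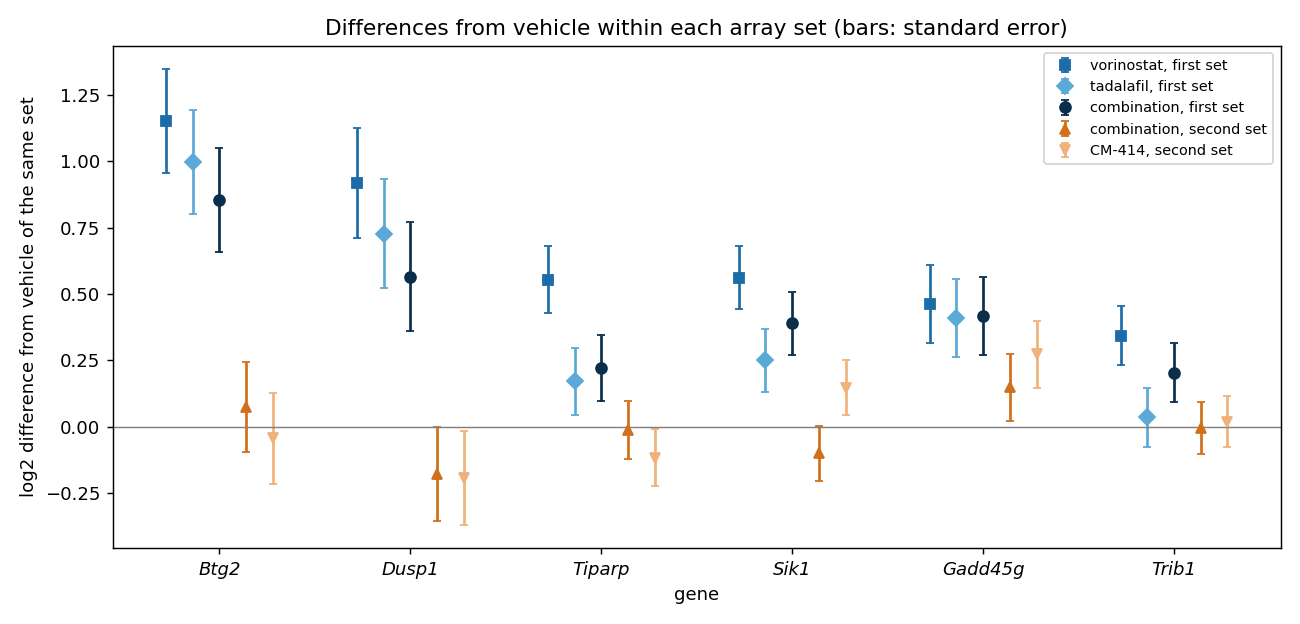
Difference from vehicle of the same array set (log2, y axis) for each gene (x axis) with vorinostat, tadalafil and the combination in the first set and with the combination and CM-414 in the second; bars are standard errors. The combination lies at 0.20 to 0.85 in the first set and at -0.18 to 0.15 in the second.

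The difference between the sets was tested after it had been seen, in genes chosen with earlier results of these data known. The contrast that chose them did not hold the combination arrays. Within the combination arrays Sik1 was higher in the first set than in the second by 0.46 (95% interval 0.23 to 0.69, adjusted p = 0.238 in limma). Tiparp was higher by 0.44 (0.19 to 0.68, adjusted p = 0.297 in limma). Dusp1 was higher by 0.54 (0.14 to 0.94, adjusted p = 0.466 in limma) and Gadd45g by 0.34 (0.05 to 0.62, adjusted p = 0.545 in limma). Btg2 and Trib1 differed by 0.33 and 0.20 with intervals that included 0. Adjusted over all genes, 0 of the 6 and 0.00585% of genes passed, while 4 of 6 had an unadjusted p under 0.05, as did 8.02% of all genes. The same difference in the vehicle arrays was -0.45 for Btg2, -0.20 for Dusp1, 0.20 for Tiparp, -0.03 for Sik1, 0.07 for Gadd45g and -0.01 for Trib1, and the first set was wholly above the second only for Tiparp among the 6 (7.95% of all genes). The combination's difference from vehicle was larger in the first set than in the second by 0.78 (SE 0.26) for Btg2, 0.74 (SE 0.27) for Dusp1, 0.49 (SE 0.16) for Sik1 and 0.21 to 0.27 for the others, given as values since the vehicle arrays were used in choosing the genes. Without the arrays with thalamic markers these were 0.54 for Btg2, 0.73 for Dusp1, 0.44 for Sik1 and 0.14 to 0.18 for the others.

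Cell type markers also differed between the sets. In the combination arrays, choroid plexus markers were lower in the first set than in the second for 8 of 8 (median -0.83), their mean running from 6.72 to 7.53 in the first set and from 7.22 to 8.82 in the second, and dentate markers were lower for 7 of 8 (median -0.22). In the vehicle arrays without vehicle 3, choroid plexus markers were also lower in the first set for 8 of 8 (median -1.03). Dentate markers were lower there for 5 of 8 (median -0.05). In the first set the thalamic markers of the combination were below vehicle for 12 of 12 (median -0.76), oligodendrocyte markers for 7 of 7 (median -0.46), and CA1 markers above vehicle for 7 of 7 (median 0.45). Without vehicle 3, thalamic markers were below vehicle for 9 of 12 (median -0.38), oligodendrocyte markers for 7 of 7 (median -0.19) and CA1 markers above it for 3 of 7 (median -0.02). None of these marker genes was called, and their part in the levels of the 6 genes was not tested.

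With CM-414 the means of the 6 genes lay close to those of vehicle, but for each gene single arrays lay outside the vehicle range. Tiparp at 6.77 was below it, for example, and Sik1 at 7.72 above it. Btg2 was at 7.32, 6.76, 6.81 and 7.42 with CM-414, Dusp1 at 7.72, 7.67, 8.15 and 8.31, and Tiparp at 7.07, 7.30, 7.17 and 6.77. Sik1 was at 7.14, 7.33, 7.72 and 7.42, the highest value being that of CM-414 3, the array with thalamic markers. Gadd45g was at 7.15, 7.68, 7.64 and 7.36, and Trib1 at 7.04, 6.90, 6.68 and 6.91. The differences from vehicle ran from -0.20 (Tiparp) to 0.24 (Gadd45g) with a median of 0.09, and from -0.19 to 0.27 within the second set. Without CM-414 3 the second-set differences ran from -0.25 (Dusp1) to 0.21 (Gadd45g). Btg2 was then at 0.05 instead of -0.04, and Sik1 at 0.04 instead of 0.15. None of the 6 was wholly above vehicle, against 0.585% of all genes, and 0 of 6 were called, against 0.00585% of all genes.

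The contrast that chose the genes held neither tadalafil, CM-414 nor the combination, so the combination could be tested against the other two. The genes were nevertheless chosen with earlier results of these data known. The combination was below tadalafil by 0.47 for Dusp1 (95% interval of the difference -0.88 to -0.06) and differed by -0.33 for Btg2 (-0.72 to 0.06), -0.20 for Tiparp (-0.48 to 0.08), -0.18 for Gadd45g (-0.46 to 0.09), -0.12 for Sik1 (-0.39 to 0.14) and 0.05 for Trib1 (-0.15 to 0.26). The adjusted p in limma was 1 for all 6, and 0% of all genes were called; 1 of the 6 and 4.16% of all genes had an unadjusted p under 0.05. In the first set, which holds all 3 tadalafil arrays, the same differences were -0.16 (-0.59 to 0.27) for Dusp1, -0.14 (-0.55 to 0.26) for Btg2, 0.05 for Tiparp, 0.01 for Gadd45g, 0.14 for Sik1 and 0.17 for Trib1, so that all 6 moved by more than the standard error of the pooled difference, and Tiparp, Sik1 and Gadd45g changed sign. None passed there (adjusted p = 1 for each, 0.00585% of all genes called).

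The combination exceeded CM-414 by 0.29 for Tiparp (95% interval 0.04 to 0.54, adjusted p = 0.25 in limma), with 0.26 for Btg2, 0.25 for Dusp1, 0.06 for Trib1, 0.02 for Gadd45g and -0.05 for Sik1. None of the 6 passed, where 0.0234% of all genes did, while 1 of the 6 and 15.9% of all genes had an unadjusted p under 0.05. Within the second set the difference was 0.10 (-0.12 to 0.33) for Tiparp and 0.12 (-0.23 to 0.47) for Btg2, and -0.25 (-0.46 to -0.03, adjusted p = 0.426 in limma) for Sik1, and 0% of all genes were called there. Without CM-414 3 and vehicle 3 the difference for Sik1 was 0.06 over both sets and -0.14 within the second.

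The departure from additivity asks how far the combination lay from the level at which both single drug differences would add on the log2 scale. It contains the vorinostat difference with a minus sign, so that choosing genes for a high vorinostat level lowers it, and it is given with no test. Over all arrays Btg2 was at 7.34 with the combination, against an additive level of 8.57, a departure of -1.23 (SE 0.27). Dusp1 was at 8.21, against 9.48 (departure -1.27, SE 0.28), and Tiparp at 7.37, against 8.23 (departure -0.87, SE 0.19). Sik1 (-0.67, SE 0.18), Gadd45g (-0.69, SE 0.19) and Trib1 (-0.29, SE 0.14) departed less. The combination fell short of the sum in all 6 genes. It was below vorinostat alone by 0.24 to 0.66 on the log2 scale over all arrays and by 0.04 to 0.35 in the first set, which the choice of genes for high vorinostat levels also favours.

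In the first set, where each group has 3 arrays, the departure was -1.30 (SE 0.28) for Btg2 and -1.08 (SE 0.29) for Dusp1. It was smaller for the others, at -0.50 for Tiparp, -0.45 for Gadd45g, -0.42 for Sik1 and -0.18 for Trib1. Without vehicle 3 it was -1.06 for Btg2, -1.07 for Dusp1, -0.45 for Tiparp, -0.32 for Gadd45g, -0.37 for Sik1 and -0.11 for Trib1. For Btg2 the combination difference of 0.85 there lay below those of vorinostat (1.15) and tadalafil (1.00) alone. For Gadd45g the 3 differences were alike, 0.42 with the combination, 0.46 with vorinostat and 0.41 with tadalafil, and for Sik1 the combination (0.39) lay between vorinostat (0.56) and tadalafil (0.25).

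**Figure D3:**
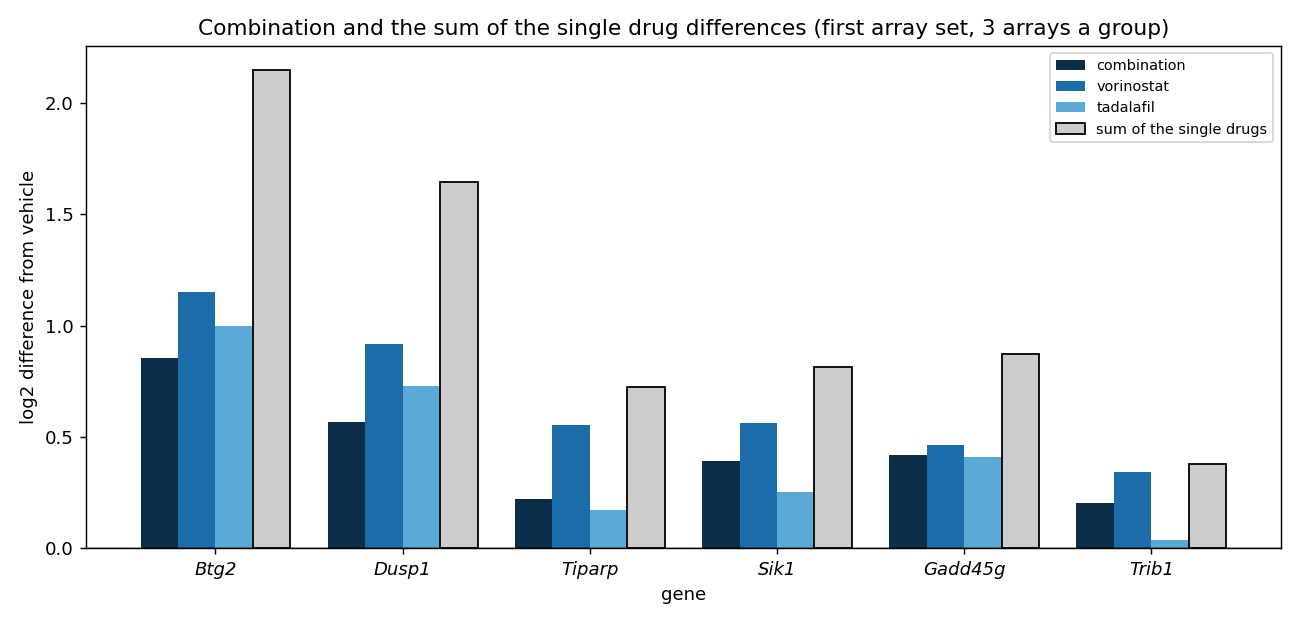
Difference from vehicle in the first array set (log2, y axis) for each gene (x axis) with the combination, vorinostat and tadalafil, beside the sum of both single drug differences; bars are means of 3 arrays a group. The combination bar is below the sum for all 6 genes, with departures from -0.18 for Trib1 to -1.30 for Btg2.

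The 6 genes followed each other to different degrees between arrays of one group. Over within-group deviations of the 22 arrays without thalamic markers, Btg2 and Dusp1 had the highest correlation of the 15 pairs (r = 0.76), and Btg2 and Gadd45g the lowest (r = -0.10). With the mean of the 6, which each gene is part of, Sik1 had r = 0.91, Dusp1 0.86, Trib1 0.77, Tiparp 0.70, Btg2 0.67 and Gadd45g 0.43. Among genes outside the 6, the deviations most like those of the mean were those of Nr4a1, an orphan nuclear receptor of the immediate early class (r = 0.94), Per1, a clock gene and CREB target (0.89), Dusp6, a phosphatase of ERK (0.87), Junb, an AP-1 subunit (0.84), Bhlhe40, a clock-linked repressor (0.84), and Gadd45b, a paralog of Gadd45g (0.83). The remaining 4 of the 10 most alike were Ehd4, Gm2022, Lce3c and Dbp (0.81 to 0.82). With all 24 arrays r was 0.74 to 0.82 for the first 6 and 0.30 for Ehd4. The points share the array sets, since in the combination and vehicle groups a deviation from the group mean includes the difference between sets.

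Nr4a1, picked for deviations that include the difference between sets, lay from 9.67 to 9.91 in the combination arrays of the first set and from 8.63 to 8.98 in those of the second, against vehicle arrays at 7.91 to 9.49 in the first set and 8.93 to 9.62 in the second. Nr4a1 was at 9.84 to 10.23 with vorinostat, 9.14 to 9.97 with tadalafil and 7.55 to 8.89 with CM-414. The lowest first-set vehicle value and the lowest CM-414 value were those of vehicle 3 and CM-414 3, the arrays with thalamic markers. Of the 8 most alike genes with a RefSeq promoter, 0 held a full CRE and 4 (Nr4a1, Per1, Junb and Ehd4) held the core site, which 25.6% of the promoters of filtered genes hold.

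**Figure D4:**
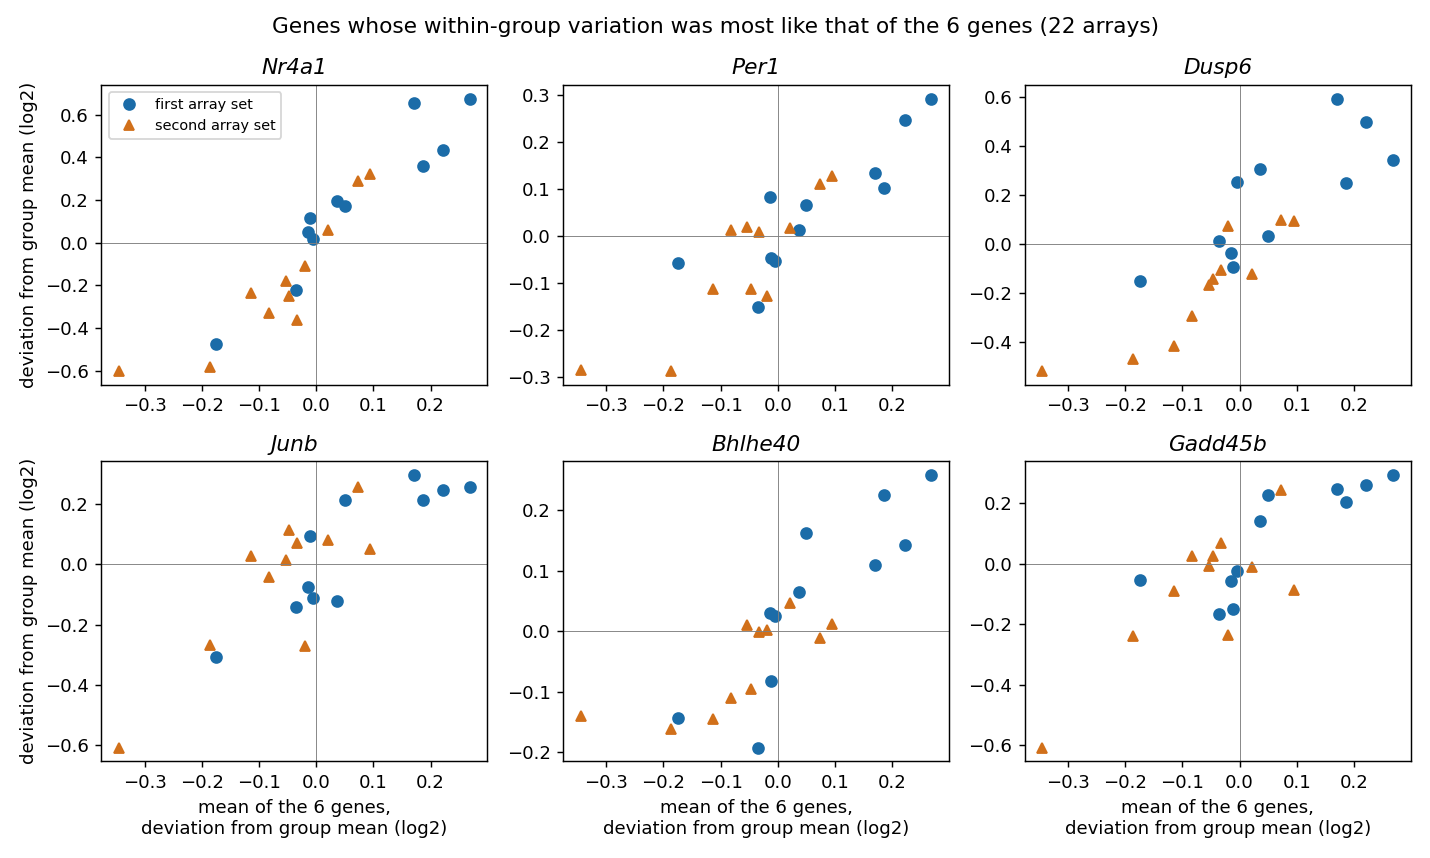
Deviation from the group mean (log2) of 6 genes most like the 6 described here (y axes), against that of the mean of the 6 (x axes), with circles for the first and triangles for the second array set; each point is 1 of 22 arrays. The points run from low left to high right in every panel, most narrowly for Nr4a1 (r = 0.94).

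Other CREB targets and relatives of the 6 genes had medians near those of all genes. Of 40 other CREB targets, 38 were measured, and 22 were higher with vorinostat than with vehicle, 19 with tadalafil, 18 with the combination and 13 with CM-414, with medians of 0.04, -0.00, -0.01 and -0.07, against -0.01, 0.00, 0.00 and -0.01 over all genes. Nr4a1 (0.96, SE 0.33) and Per1 (0.38, SE 0.13) had the smallest p of the list with vorinostat, and with the combination Fst, an inhibitor of activin (-0.16), and Pim1, a survival kinase (-0.19). Of 23 paralogs of the 6, 20 were measured, and 10 were higher with vorinostat, 11 with tadalafil, 8 with the combination and 11 with CM-414. An unadjusted p under 0.05 in limma, in either direction, was more frequent than the medians show. It was found for 8, 4, 3 and 6 of the 38 CREB targets in the same order of treatments. For the 20 paralogs the counts were 5, 2, 2 and 4, against 8.76%, 5.32%, 4.04% and 12.6% of all genes. Tob1, the relative of Btg2 that also recruits the deadenylase complex, was higher by 0.46 with vorinostat and 0.13 with the combination, whereas Trib2 was lower by 0.36 with vorinostat, and Dusp4 and Dusp10 were each lower by 0.26 with the combination.

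Genes induced by glucocorticoids, of which Dusp1 is also a known target, lay above vehicle for 16 of 16 with vorinostat (median 0.17), 13 of 16 with tadalafil (0.13), 5 of 16 with the combination (-0.01) and 6 of 16 with CM-414 (-0.05), where 46.3%, 50%, 49.7% and 47.6% of all genes lay above it. Against vehicle of the first set the counts were 16 with vorinostat, 14 with tadalafil and 11 with the combination (median 0.06), and without vehicle 3 they were 11, 9 and 5 of 16; in the second set 3 of 16 were above vehicle with the combination (median -0.11). Among them Ddit4, an inhibitor of mTORC1, was higher by 0.56 with vorinostat and 0.43 with tadalafil. With the combination Cdkn1a differed by -0.23 and Cebpd, a transcription factor of the acute phase, by 0.19. For p53 targets the counts were 12, 6, 6 and 6 of 16 in the same order of treatments. Against vehicle of the first set the vorinostat count was 12 of 16 (median 0.07), and without vehicle 3 it was 8 of 16 (median 0.01). Ddit4 and Cdkn1a are on both lists. The p53 target Aen, a nuclease, differed by -0.21 with vorinostat, and the cell cycle inhibitor Cdkn1a by -0.23 and Zmat3 by -0.16 with the combination.

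Over all arrays, heat shock genes were above vehicle in 4 of 10 with vorinostat and 2 of 10 with the combination, genes of the integrated stress response in 5 of 12 and 4 of 12. Against vehicle of the first set, the vorinostat counts were 2 of 10 and 6 of 12. For the combination they were 2 of 10 and 7 of 12 there (5 of 12 without vehicle 3), and 7 of 10 and 1 of 12 in the second set. The cochaperone Dnajb1 differed by -0.20 and Hspa5, the chaperone of the endoplasmic reticulum, by -0.15 with vorinostat, and Hspb1 by -0.26 and Hspa1b by 0.16 with the combination. Asns, asparagine synthetase, differed by -0.25 and Sesn2 by -0.29 with vorinostat, and Chac1, which degrades glutathione, by -0.17 with the combination. Partners and targets of the aryl hydrocarbon receptor, including its repressor Ahrr (0.18 with vorinostat), were above vehicle in 5 of 7 with each over all arrays. In the first set the counts were 7 of 7 with vorinostat (4 of 7 without vehicle 3) and 4 of 7 with the combination. Arnt, with which the receptor binds DNA, differed by 0.11 with vorinostat and its paralog Arnt2 by 0.13 with the combination. MAP kinases, the family that Dusp1 acts on, were above vehicle in 1 of 7 with vorinostat and 4 of 7 with the combination over all arrays, and in 4 of 7 with each in the first set, with Mapk11 at -0.33 and Mapk12 at -0.18 with vorinostat and Mapk13 at 0.23 and Mapk14 at 0.10 with the combination. Genes of the SIK and CRTC axis were above vehicle in 7 of 13 and 9 of 13, with the SIK substrate Hdac5 at -0.29 and Mef2a at 0.15 with vorinostat, and Hdac4 at 0.14 and Hdac7 at 0.08 with the combination. No member of any of these lists was called in any comparison with vehicle, in either direction.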

How the data were processed

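RNA of 24 hippocampi was measured on Affymetrix Mouse Gene 2.0 ST arrays. The authors processed the scans by RMA (version not given in the sources used here) and deposited log2 values for 41345 probe sets, with array medians from 5.90 to 5.98. Since RMA equalises the arrays, a change shared by all genes would be removed. Precision is limited by the 3 to 7 arrays per group, which the labels call biological replicates; p-values measure the spread between these arrays.

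The platform annotation names 1 gene for 23521 probe sets, several for 1820 and none for 16004. Following the study's methods, a gene needed a log2 value above 4 (linear 16) in 2 or more arrays of every group. Several-gene probe sets and genes not annotated as protein-coding were dropped, and the probe set of highest mean stood for its gene; a second Tiparp probe set averaged 3.48. All 24 arrays entered 1 limma 3.58.1 fit (R 4.3.3), adjusted by Benjamini-Hochberg over 17089 genes at 0.05; a fit with group by array set cells, tested after the sets were seen, gave values within sets. Likeness was Pearson's r of deviations from group means. The text names the 6 genes, the 10 of highest likeness and, per list, the 2 of smallest p with vorinostat and with the combination. The 6 genes and the lists were chosen with earlier results of these data known. Alternatives were filters, probe set means, non-coding genes, centring, array weights, a trended prior, fewer groups, blocks and left-out arrays. Sequences are from RefSeq (GRCm38.p6).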

Additional observations from a re-analysis of the deposited data

How the results depend on the processing

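In the tested comparisons, no difference changed direction with an adjusted p under 0.05 in limma in either fit. None of the 6 passed in their main fits, so little could be learned from this. Signs did change below that threshold, as for Tiparp, Sik1 and Gadd45g in the combination against tadalafil within the first set. With 1 array left out, 0 of the 6 genes were called in the comparisons that hold no vorinostat arrays. Array weights gave calls that the unweighted fit did not. For the combination between array sets 2 of the 6 were called, with 0.679% of all genes. These were Tiparp (0.43, adjusted p = 0.0487 in limma) and Sik1 (0.47, adjusted p = 0.0169 in limma). Over the other alternatives the adjusted p was 0.157 to 0.946 for Tiparp and 0.065 to 0.662 for Sik1. Calls also changed for vorinostat against vehicle and for the departure from additivity. Both hold the vorinostat values that chose the genes, so no counts are given for them here. In the first set alone, the median difference of the 6 was 0.40 for the combination against vehicle, -0.23 against vorinostat and 0.0295 against tadalafil, and in the second set alone -0.0044 against CM-414. With the array set as a block the median was 0.22 for tadalafil against vehicle. The median departure from additivity was -0.48 with the array set as a block, in the first set alone and with the replicate block. Replicate numbers were shared by the groups, but same-numbered vehicle and combination arrays correlated at 0.16 to 0.20 in their deviations for numbers 1 to 3, each with its own number as best match, and at -0.06 to 0.11 for numbers 4 to 7, none of which matched its own number best, so the numbers were not taken to pair the arrays; apart from the departure, the replicate block moved no median by more than the replicate spread and no call. With 1 array left out, medians ran from 0.58 to 0.65 (vorinostat against vehicle), 0.31 to 0.41 (tadalafil), 0.07 to 0.20 (combination), 0.01 to 0.10 (CM-414), -0.50 to -0.40 (combination against vorinostat), -0.24 to -0.14 (against tadalafil), 0.11 to 0.22 (against CM-414), -0.83 to -0.72 (departure), 0.35 to 0.44 (combination between sets) and 0.31 to 0.45 (the combination's difference from vehicle between sets).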
